A study of Mus musculus with 12 samples.

Results

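The small-subunit ribosomal protein genes were followed through oocyte growth and meiotic maturation in wild-type (WT) and Zar1/2-null mice. Members were the rows whose symbol is Rps followed by a number, with an optional a, l or x, plus Rpsa and Fau, which gave 33 genes of 23230 in the table. Kinases named for their action on a ribosomal protein, such as Rps6ka and Rps6kb, were left out. All 33 members reached 1 FPKM (the reads of a gene scaled to its length and to the depth of the library) in at least 1 library and were tested together with the other genes that did, 11502 in all. Rps4l, a paralogue of Rps4x, was not listed.

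Oocytes of the 2 genotypes were compared at 3 stages with 2 libraries in each of the 6 groups, so that 12 libraries entered. The mice were of a C57BL6/ICR hybrid strain, and no group had a treatment other than the hormones used for collection. Growing oocytes came from females of 13.5 days, germinal vesicle (GV) oocytes from females of 21 days at 44 h after PMSG (a gonadotropin that drives follicle growth), and MII oocytes were collected at 16 h after hCG, the ovulatory hormone. The age of the females that gave the MII oocytes was not in the labels. For superovulation the study's methods give an age range that starts at 21 days, with PMSG 44 h before hCG. Those methods also give a lower age for the growing oocytes than the labels do. The null mice carried CRISPR/Cas9 deletions in the germline, so that they were present in every cell: that in Zar2 shifts the reading frame and that in Zar1 is short and followed by a stop codon, each from 1 mutant strain. By the study's description, null oocytes ovulated under this treatment had often not completed the first meiotic division, so the stage name MII refers here to the collection and not to the meiotic phase of every null oocyte. Each library came from 10 pooled oocytes, and the labels do not say whether libraries of a group came from separate females. P-values therefore measure the spread between these libraries, which may be technical.

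Ribosomal proteins of the small (40S) subunit bind the 18S rRNA and form its head, body and platform, where mRNA is held and codons are read. Their genes are short and transcribed at high rates, and in many cell types their mRNAs are translated as a group under the control of a pyrimidine tract at the 5′ end. Growing mouse oocytes build up ribosomes and mRNA, transcription stops before maturation, and during maturation many stored mRNAs lose their poly(A) tails and are degraded. ZAR1 and ZAR2 are RNA-binding proteins of the oocyte with zinc fingers.

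The libraries were primed with oligo-dT by the Smart-seq2 method, so loss of the poly(A) tail and loss of the mRNA cannot be told apart. The deposited values had been scaled by the authors to a spike-in (ERCC RNA added in equal amount to each lysate), and recovered scaling factors fell from 1.00 in WT growing oocytes to 0.225 in the lowest WT MII library. Depth relative to the first WT growing library, recovered from the smallest values, ranged from 0.914 to 1.24, and the counting error of single values is unknown because the table holds no counts. Zar1l, the symbol of Zar2 in the table, was at 533 and 504 FPKM in WT and 20.9 and 19.6 FPKM in null GV oocytes. Zar1 was at 439 and 423 FPKM in WT and 136 and 203 FPKM in null GV oocytes, and its short deletion leaves most of the mRNA to be counted. The 12 oocyte markers were at 1 FPKM or more in every library, except Figla at 0.276 and 0.687 FPKM in WT MII oocytes. Of 16 granulosa and cumulus markers, Amh, Amhr2, Foxl2, Inha and Ptx3 were listed at 0 in the MII libraries of both genotypes. The highest of these markers at MII was Cyp19a1, the aromatase gene, at 3.86 and 4.01 FPKM in WT and 7 and 5.89 FPKM in null oocytes, followed by Nr5a2 at 0.925 and 1.18 FPKM in WT and 1.25 and 1.21 FPKM in null oocytes, and the other 9 were under 1 FPKM. Since each library was a pool of 10 oocytes, fewer cells that hold an mRNA and less of it per cell cannot be told apart.

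Together the 33 members kept their summed level up to the GV stage, and after maturation that level differed between the genotypes. In WT oocytes their summed level was 14734 ± 407 FPKM in growing, 14363 ± 379 FPKM in GV and 849 ± 84.0 FPKM in MII oocytes (SD, n = 2). The null oocytes had 12999 ± 899, 13198 ± 1967 and 4404 ± 831 FPKM at the same stages. As a percentage of all FPKM in a library, which the spike-in scaling cannot change, the WT values were 2.35 and 2.28 in growing, 2.53 and 2.93 in GV and 0.708 and 0.652 in MII oocytes. The null libraries held 2.40 and 2.45, 3.63 and 2.80, and 2.38 and 2.16 percent. The 2 genotypes overlapped at the GV stage, and both null MII libraries lay more than 3-fold above both WT MII libraries.

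**Figure D1:**
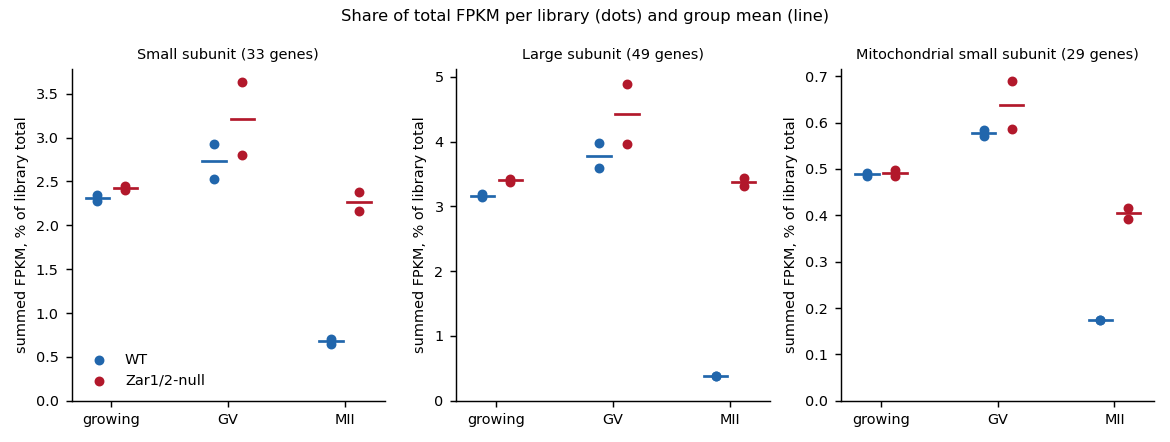
Summed FPKM of the small-subunit, cytoplasmic large-subunit and mitochondrial small-subunit genes as a percentage of each library's total FPKM, by stage (x axis) and genotype (blue WT, red Zar1/2-null), with dots for libraries and lines for group means. The WT MII libraries fell to 0.652 and 0.708 percent for the small subunit, while the null MII libraries stayed at 2.16 and 2.38 percent.

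A large portion of the summed level in WT MII oocytes came from 1 member. Rps27l, a paralogue of Rps27 that p53 can induce in somatic cells, supplied 4.75% ± 0.351 of the summed member FPKM in WT growing, 5.40% ± 0.572 in WT GV and 55.9% ± 3 in WT MII oocytes (SD, n = 2). In null MII oocytes its portion was 11.3% ± 0.296. Without Rps27l, the other 32 members summed to 374 ± 11.6 FPKM in WT MII and 3904 ± 724 FPKM in null MII oocytes, or 0.300% ± 0.00286 and 2.01% ± 0.128 of the library total.

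The order of the members in growing oocytes was nearly the same in GV oocytes, whichever the genotype. In WT growing oocytes Rps29 was the highest, at 1572 ± 15.6 FPKM, followed by Rps13 at 1180 ± 23.5 FPKM (SD, n = 2). Rps27l at 700 ± 71.0 and Rps4x at 690 ± 40.9 FPKM were also among the 5 highest and did not differ beyond their spread. The lowest members were Rps15a at 34.3 ± 3.95, Rps3 at 51.1 ± 2.34 and Rpsa at 107 ± 3.87 FPKM, and of these Rpsa lay within the spread of the next member up, Rps23 at 114 ± 5.23 FPKM. In WT GV oocytes Rps29 (1461 ± 7.84), Rps13 (1135 ± 65.4), and Rps27l (776 ± 103) were the 3 highest by FPKM, and Rps15a (36.2 ± 5.36), Rps3 (50.5 ± 0.117) and Rps23 (60.7 ± 4.49) the 3 lowest.

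Maturation changed that order. Across the 33 members the Spearman correlation of levels, given as a description over genes that share libraries and depth, was 0.975 between WT growing and WT GV, 0.968 between WT GV and null GV, and 0.425 between WT GV and WT MII oocytes. It was 0.587 between null GV and null MII oocytes. In WT MII oocytes Rps27l (476 ± 72.4), Rps28 (63.8 ± 10.3), Rps2 (29.1 ± 0.347) and Rps16 (26 ± 3.01) were among the 5 highest by FPKM, of which Rps2 and Rps16 overlapped within their SDs. Rps27 (0.0916 ± 0.0523), Rpsa (0.296 ± 0.0487) and Rps19 (0.357 ± 0.360) were the 3 lowest there, all under 1 FPKM. In null MII oocytes Rps29 was again the highest, at 1130 ± 220 FPKM.

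**Figure D2:**
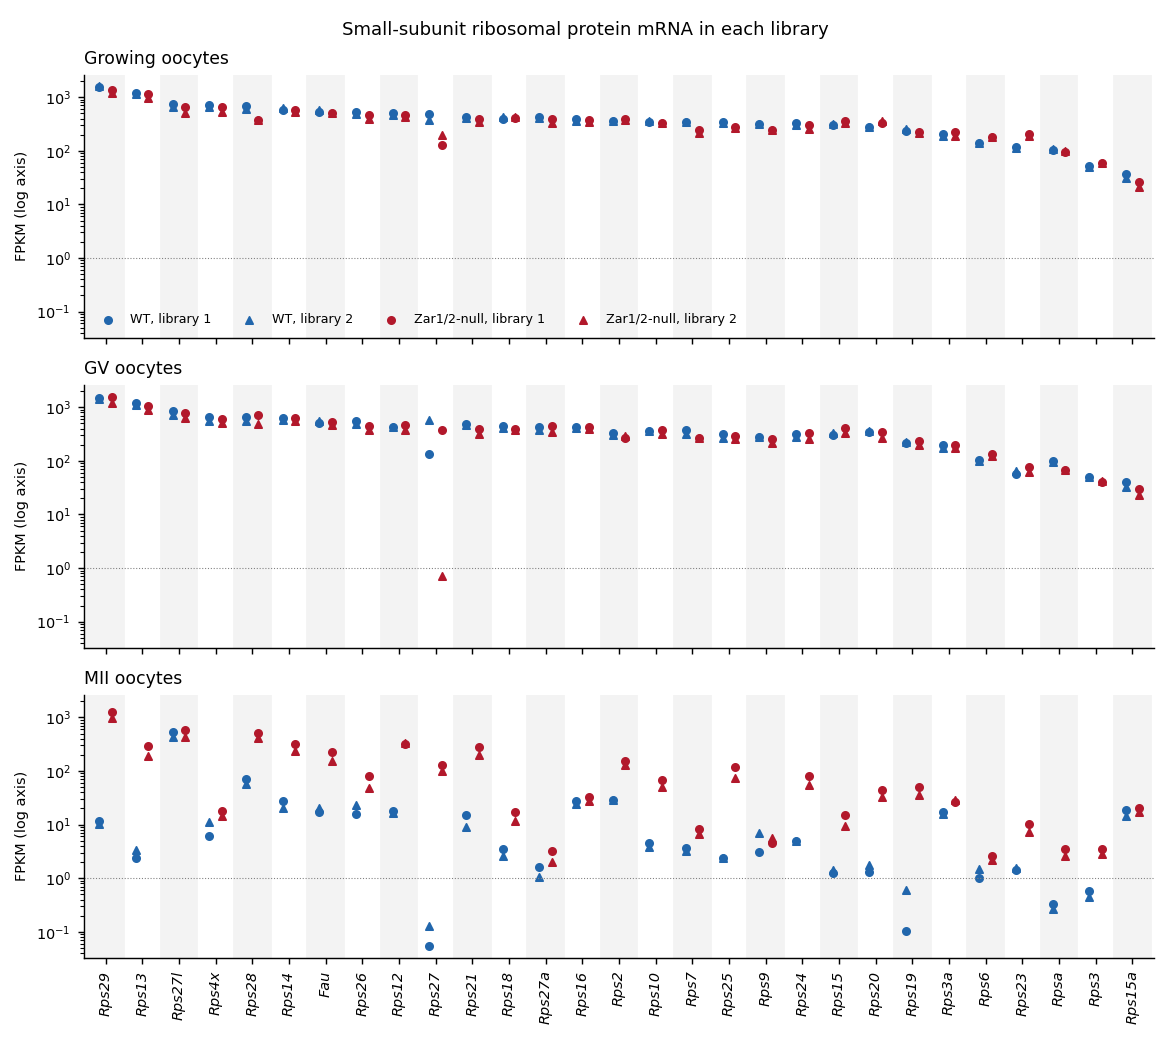
FPKM on a log axis of 29 of the 33 members (x axis, ordered by their WT growing mean) in the 2 WT (blue) and 2 Zar1/2-null (red) libraries of each stage, with a dotted line at 1 FPKM. Growing and GV libraries follow nearly the same order, with Rps27 scattered at the GV stage, whereas in MII oocytes 25 of those shown have both null libraries above both WT libraries.

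Levels of different members are compared here per length, and 1 property of these genes bears on that order. Ribosomal protein genes have many processed pseudogenes, and the authors kept reads that mapped to 1 place with a trimmed length of 50 bases. Of all 50-base windows in a member's coding sequence, a median of 88.3% occurred in an identical copy elsewhere in the mm9 genome, and this share was over 50% in 26 members. It was 8.05% in Rps3, and Fau, Rps12, Rps13, Rps16, Rps23, Rps27, Rps27a, Rps28, Rps29 and Rps6 had 100%. The windows were cut from the spliced coding sequence, so those across its splice junctions are among them. Reads that reach into a UTR were not covered by these windows and can still be unique. The level of a member against another may therefore be understated, and this was not tested. A comparison of the same gene between groups shares its windows.

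The members lie on 14 chromosomes and differ in length. Rps29 has the shortest coding sequence, 171 bases, and Rpsa the longest, 888 bases, against medians of 441 bases over the members and 1314 bases over 10765 tested genes with a coding transcript in the mm9 annotation. In mm9, Rps29 lies on the minus strand at chr12:70258709-70260173, Rps13 on the minus strand at chr7:123475021-123477704, Rps27 on the minus strand at chr3:90016593-90017573 and Rps27l on the plus strand at chr9:66793893-66797323. Rps27 and Rps27l encode proteins of the same length, 84 residues.

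A RefSeq start site was given for 25 members, and Rps14, Rps20, Rps27a and Rps29 were among those without one. Between 20 bases before and 40 bases after the annotated start, on the sense strand, 16 of the 25 (64.0%) held a run of at least 8 C or T. The share was 24.1% of 8148 tested genes with a start. For each gene, members included, the start with the longest run was taken. Over the 32851 single starts in the RefSeq table it was 21.8%. The following 30-base windows show members with large and with small differences between the genotypes in MII oocytes. Capitals mark the longest run of C or T within the searched bases. In Rps25 that run begins at the first searched base, and C or T continues before it.
Fau (chr19:6057936-6057965, GRCm38.p6, plus strand): cgcccccaCTTCTTCCTCTTTCTTgactcc
Rps25 (chr9:44407686-44407715, GRCm38.p6, plus strand): accgggctTCCTTTTTTTCCgacatcttag
Rps27 (chr3:90213629-90213658, GRCm38.p6, minus strand): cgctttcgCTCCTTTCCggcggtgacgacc
Rps13 (chr7:116334157-116334186, GRCm38.p6, minus strand): tggcgtcaCTTCCTgtgcggcttgatttcc
Rps27l (chr9:66946066-66946095, GRCm38.p6, plus strand): cctctccaCTCCTCCCCgccgcctctatcc
Rps15a (chr7:118116141-118116170, GRCm38.p6, minus strand): ccggcccaCTCTCTTTCTgccatcttccct
Rps9 (chr7:3704027-3704056, GRCm38.p6, plus strand): ccgccttgTCTCTCTTTgtctcgggcctga
A run of 8 or more was present in Fau, Rps25 and Rps27, whose mRNAs were higher in null MII oocytes. It was equally present in Rps27l, Rps15a and Rps9, whose mRNAs did not pass the test. The marked runs of Rps25, Rps15a and Rps27l began at -20, -15 and -12 and ended before the annotated start. Those of Fau, Rps27 and Rps9 began at -3, -2 and -6 and crossed it. Whether a run lies at the 5′ end of the mRNA in oocytes was not tested. Rps13, with a large difference, had a longest run of 6. The 16 members with such a run had a median MII difference of 2.08 on the log2(FPKM + 1) scale and the 9 without it 1.62, with ranges that overlapped.

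The 3′ ends were compact. The median 3′ UTR was 49 bases over the members and 759 bases over the tested genes. In the last 50 bases of the mRNA, 12.1% of the members (4 of 33) held the cytoplasmic polyadenylation motif TTTTAT or TTTTAAT on the sense strand, close to the 11% of 10511 tested genes. The 4 were Rps2, Rps24, Rps27l and Rps3a, and the sites are shown in capitals for the 3 with the highest percentage of the GV level left in WT MII oocytes.
Rps27l (chr9:66797290-66797319, mm9, plus strand): gtcagtttttcaataaagTTTTAATtatgg
Rps2 (chr17:24858821-24858850, mm9, plus strand): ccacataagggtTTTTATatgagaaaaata
Rps3a (chr3:85941884-85941913, mm9, minus strand): taaaatccagatTTTTAATagtgacaaata
WT MII oocytes kept 61.3% of the GV level of Rps27l, 9.29% of Rps2 and 8.93% of Rps3a, and 1.68% of Rps24. Rps15a and Rps28, which kept 45.9% and 10.7%, held neither motif in these letters.

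The question put by the ovulated oocytes was which mRNAs differ between the genotypes once maturation has been triggered. Of the 33 members, 29 were higher in null than in WT MII oocytes and 0 were lower (limma on log2(FPKM + 1) over all 12 libraries, adjusted p under 0.05). The same number, 29, had an unadjusted p under 0.05. Over all 11502 genes tested, 21.5% were called higher and 10.3% lower. The members' median difference was 2.21 on the log2 scale, against 0.06 over all genes. Both null libraries lay above both WT libraries in 29 members, against 43.5% of all genes, and below in 0, against 27.8%. By a fold rule after that of the study, a ratio of group means above 3 with means under 1 FPKM set to 1, 22 members were higher and 0 lower, against 7.49% and 1.32% of all genes. Other oocyte mRNAs moved with them, since 9 of 12 oocyte markers were higher and 1 was lower in null MII oocytes, and of the 6 granulosa and cumulus markers that could be tested 0 passed. Their summed level was 5132 ± 702 FPKM in WT MII and 9022 ± 1128 FPKM in null MII oocytes for the 12 oocyte markers, and 5.48 ± 0.238 and 8 ± 0.847 FPKM for 16 granulosa and cumulus markers. Of 8 other somatic markers 2 could be tested, and 1 was higher and 0 lower in null MII oocytes. Pecam1, the highest of these markers, was at 2.45 and 3.13 FPKM in WT and 4.61 and 4.80 FPKM in null MII oocytes. The part of any of these marker lists in the members' difference was not tested.

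The head of the subunit held 14 members, of which 13 were higher in null MII oocytes, against 21.5% of all genes. The median difference of the 14 was 3.20 on the log2 scale. Rps29, a small zinc-binding protein of the head, was at 11.8 and 10.1 FPKM in WT and 1285 and 974 FPKM in null MII oocytes. Its null MII libraries overlapped with its null GV libraries of 1574 and 1181 FPKM, while the WT MII libraries were far below the WT GV libraries of 1467 and 1456 FPKM. The difference between genotypes was 6.55 (SE 0.19, limma adjusted p = 9.82e-10), a 103-fold ratio of means.

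Rps19, mutated in Diamond-Blackfan anaemia, was almost lost from WT MII oocytes. It was at 0.103 and 0.611 FPKM in WT and 50.7 and 36.0 FPKM in null MII oocytes, from 217 and 227 FPKM in WT and 237 and 198 FPKM in null GV oocytes. The MII libraries of the genotypes did not overlap, and the GV libraries did. The difference was 5.04 (SE 0.21, limma adjusted p = 1.09e-08). With the WT mean set to 1 FPKM, Rps19 was at least 43.4-fold higher in null MII oocytes.

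Rps25, which some viral mRNAs need for internal initiation, was at 2.37 and 2.38 FPKM in WT and 118 and 75.3 FPKM in null MII oocytes. Rps12, a head protein without a bacterial counterpart, was at 17.9 and 16.8 FPKM in WT and 321 and 330 FPKM in null MII oocytes, below its null GV values of 467 and 375 FPKM. Rps28, near the mRNA exit, was at 71.1 and 56.5 FPKM in WT and 504 and 416 FPKM in null MII oocytes. All 3 had separate MII libraries, with differences of 4.82, 4.15 and 2.83 on the log2 scale (limma adjusted p = 1.03e-08, 3.90e-09 and 1.12e-06).

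Rps10 and Rps20, which are ubiquitylated when ribosomes collide, were at 4.45 and 3.80 FPKM and at 1.32 and 1.74 FPKM, respectively, in WT MII oocytes. In null MII oocytes Rps10 was at 69.2 and 50.7 FPKM and Rps20 at 44.5 and 32.2 FPKM, each above WT in both libraries. The differences were 3.56 (SE 0.17, limma adjusted p = 3.09e-08) and 3.94 (SE 0.19, limma adjusted p = 3.03e-08).

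Rps15, whose tail reaches the decoding site, was at 1.24 and 1.42 FPKM in WT and 15 and 9.33 FPKM in null MII oocytes, a difference of 2.46 (SE 0.20, limma adjusted p = 2.74e-06). Its null MII libraries were several-fold above the WT libraries, at 3.27% of the null GV level.

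Rps18, a head protein, and Rps3, which lies at the mRNA entry, were among the head members with smaller differences. Rps18 was at 3.56 and 2.60 FPKM in WT and 17.1 and 11.5 FPKM in null MII oocytes, and Rps3 at 0.588 and 0.455 FPKM in WT and 3.46 and 2.85 FPKM in null oocytes. Their libraries did not overlap between genotypes, and the differences were 1.89 (SE 0.19, limma adjusted p = 1.33e-05) and 1.45 (SE 0.13, limma adjusted p = 7.32e-06). Rps16, whose tail contacts the P-site tRNA, was the head member that did not pass the test. It was at 28.1 and 23.9 FPKM in WT and 32.4 and 28.1 FPKM in null MII oocytes, so that the lower null library met the higher WT library, with a difference of 0.21 (SE 0.15, limma adjusted p = 0.33).

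Ubiquitin-type fusion proteins are made from 2 members. Fau encodes a ubiquitin-like protein joined to the 40S protein eS30 and was at 17.5 and 20.5 FPKM in WT and 224 and 155 FPKM in null MII oocytes, a difference of 3.23 (SE 0.18, limma adjusted p = 1.27e-07). Rps27a encodes ubiquitin joined to the 40S protein eS31 and was at 1.59 and 1.07 FPKM in WT and 3.22 and 2.02 FPKM in null MII oocytes, a difference of 0.62 (SE 0.21, limma adjusted p = 0.0387). The libraries of both genes were separate between genotypes, but Rps27a was close to loss in both. Its call was lost without the first null MII library (adjusted p = 0.292), the second WT MII library (0.236) or any 1 of the 4 WT growing and GV libraries (0.0507 to 0.0604), without the filter on low values (0.132), in a fit of the 4 MII libraries (0.103) and under median scaling (0.0789).

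The body and platform held 18 members, with 16 higher in null MII oocytes, against 21.5% of all genes. The median difference of the 18 was 1.63 on the log2 scale, and the contrast with the head members was not tested. Rps13, which binds the central domain of the 18S rRNA, was at 2.43 and 3.35 FPKM in WT and 298 and 191 FPKM in null MII oocytes, after 1181 and 1089 FPKM in WT and 1061 and 893 FPKM in null GV oocytes. The WT libraries were far below the null libraries, and these in turn below their own GV level, a difference of 5.95 (SE 0.21, limma adjusted p = 3.79e-09). Its ratio of means, 84.5-fold, was exceeded by Rps29 and by the lower bound of Rps27.

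Rps27, a zinc-finger protein of the platform side, differed the most and was also the least reproducible member. It was at 0.0547 and 0.129 FPKM in WT and 132 and 98.4 FPKM in null MII oocytes. The MII libraries of each genotype were close to each other, but the GV libraries were not, with 137 and 586 FPKM in WT and 383 and 0.716 FPKM in null oocytes. In growing oocytes Rps27 was at 484 and 370 FPKM in WT and 127 and 193 FPKM in null oocytes. The MII difference was 6.72 (SE 1.73, limma adjusted p = 0.0113), at least 115-fold with the WT mean set to 1 FPKM. The call was lost without the filter on low values (adjusted p = 0.122) and without either WT MII library or the first null MII library (0.0588 to 0.0630).

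Rps21 and Rps24, neither of which has a bacterial counterpart, and Rps14, a platform protein lost with the 5q- syndrome, were all an order of magnitude higher in null MII oocytes. Rps21 was at 15.2 and 8.98 FPKM in WT and 277 and 202 FPKM in null MII oocytes. Rps24 was at 4.84 and 5.04 FPKM in WT and 81.1 and 53.8 FPKM in null oocytes and Rps14 at 27.1 and 20.8 FPKM in WT and 320 and 239 FPKM in null oocytes. No libraries overlapped, and the differences were 4.23 (SE 0.23, limma adjusted p = 1.05e-07), 3.50 (SE 0.21, limma adjusted p = 1.75e-07) and 3.49 (SE 0.19, limma adjusted p = 7.22e-08).

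Rps2 and Rps9 line the mRNA entry, Rps23 sits at the decoding centre and Rps26 contacts mRNA at the exit. Rps2 was at 28.9 and 29.4 FPKM in WT and 151 and 127 FPKM in null MII oocytes, Rps23 at 1.43 and 1.58 FPKM in WT and 10.2 and 7.35 FPKM in null oocytes, and Rps26 at 15.9 and 23.4 FPKM in WT and 79.3 and 47.9 FPKM in null oocytes. These 3 were higher in both null libraries, by 2.21 (SE 0.14, limma adjusted p = 3.83e-07), 1.95 (SE 0.17, limma adjusted p = 5.24e-06) and 1.63 (SE 0.25, limma adjusted p = 0.000353). Rps9 was at 3.11 and 6.87 FPKM in WT and 4.49 and 5.57 FPKM in null MII oocytes. Both null values of Rps9 lay between the WT values, and the difference was 0.077 (SE 0.25, limma adjusted p = 0.884).

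Rpsa, also known as the laminin receptor, was at 0.330 and 0.261 FPKM in WT and 3.47 and 2.57 FPKM in null MII oocytes, at least 3.02-fold higher with the WT mean set to 1 FPKM. Rps6, the substrate of the S6 kinases, was at 0.993 and 1.46 FPKM in WT and 2.63 and 2.21 FPKM in null MII oocytes. The genotypes were separate for both genes, and the differences were 1.62 (SE 0.14, limma adjusted p = 5.05e-06) and 0.63 (SE 0.15, limma adjusted p = 0.00772). The call of Rps6 was lost without the first WT MII library (adjusted p = 0.0751) and without the first null MII library (0.0665).

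Rps7, Rps4x and Rps3a were body members with differences under 1 on the log2 scale. Rps7 was at 3.59 and 3.27 FPKM in WT and 8.44 and 6.69 FPKM in null MII oocytes. Rps4x, encoded on the X chromosome, was at 6.09 and 11.3 FPKM in WT and 18.1 and 14.7 FPKM in null oocytes, and Rps3a at 17.4 and 16.0 FPKM in WT and 26.8 and 29.3 FPKM in null oocytes. In each of the 3 both null libraries were above both WT libraries. The differences were 0.72 (SE 0.16, limma adjusted p = 0.00435) for Rps3a, 0.89 (SE 0.24, limma adjusted p = 0.0150) for Rps4x and 0.94 (SE 0.15, limma adjusted p = 0.000635) for Rps7. The Rps4x call was lost without the first WT MII library (adjusted p = 0.151), without the first null MII library (0.106), without the filter on low values (0.0880) and in a fit of the 4 MII libraries alone (0.0820). Under median scaling Rps3a no longer passed (0.0812).

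Rps15a and Rps27l were nearly equal between the genotypes. Rps15a, a body protein, was at 18.7 and 14.6 FPKM in WT and 20.3 and 17.2 FPKM in null MII oocytes. Rps27l was at 527 and 424 FPKM in WT and 575 and 424 FPKM in null MII oocytes. The libraries overlapped for both, with differences of 0.17 (SE 0.20, limma adjusted p = 0.610) and 0.062 (SE 0.22, limma adjusted p = 0.898). With Rps16 and Rps9, these were the 4 members that did not pass, and without spike-in scaling or with median scaling their differences turned slightly negative, still short of the threshold. A p that misses the threshold does not show equal levels.

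Members were also grouped by whether bacteria have a homologue. All 17 members listed as specific to eukaryotes and archaea were higher in null MII oocytes, with a median of 3.23 on the log2 scale. Of the 15 members with a bacterial homologue 12 were, with a median of 1.95, and over all genes 21.5% were called higher. Rps9, Rps15a and Rps16, which did not pass, belong to the second list. Rps27l, the paralogue of Rps27, was placed in neither list and did not pass either. The difference between the lists was not tested.

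**Figure D3:**
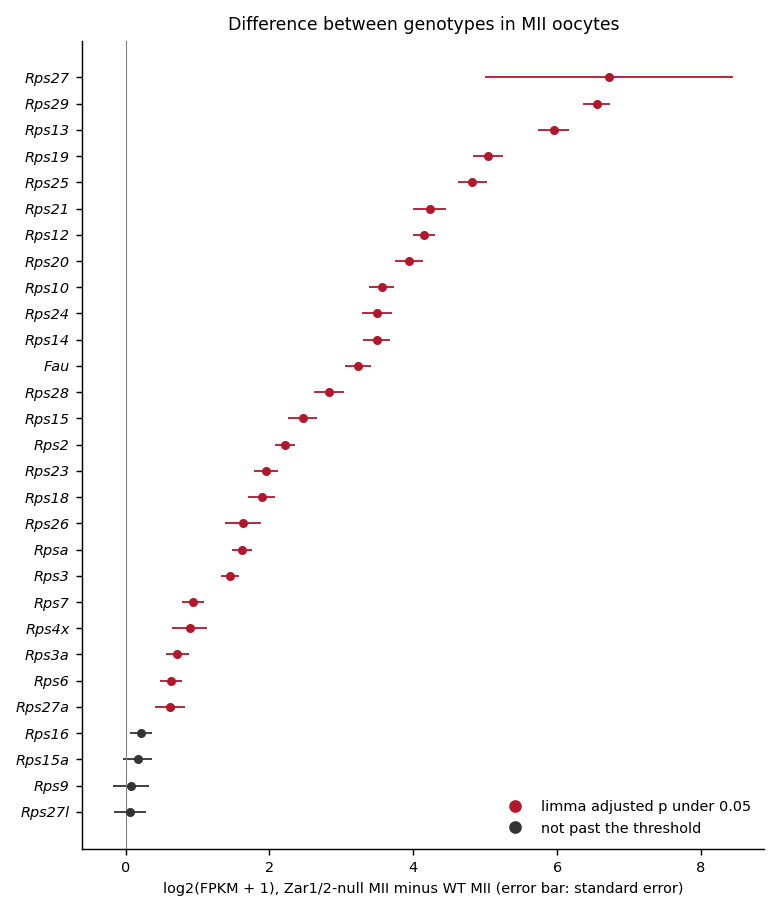
Difference in log2(FPKM + 1) between Zar1/2-null and WT MII oocytes (x axis) for 29 of the 33 members (y axis, ordered by the difference), with the standard error of the limma fit as bars. Red points are the 25 of these past the threshold, from Rps27 at 6.72 to Rps27a at 0.62, and dark points the 4 that were not.

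Within the family, shorter coding sequences went with larger differences in MII oocytes. Across the 33 members the Spearman correlation of coding length with the MII difference was -0.465, and with the difference between null MII and null GV oocytes it was -0.620. With the difference between WT MII and WT GV oocytes it was 0.00535. Over the 10765 tested genes the same 3 values were -0.254, 0.147 and 0.256. These are descriptions across genes that share libraries and scaling and carry no p. The 11 shortest members (171 to 402 bases) had a median MII difference of 3.94 on the log2 scale, the 11 in the middle (402 to 477 bases) 2.46 and the 11 longest (498 to 888 bases) 0.96. As a percentage of the GV level, null MII oocytes held a median of 67.6, 12.5 and 4.54 for the 3 length groups, and WT MII oocytes 3.54, 0.714 and 1.20. Rps2, at 882 bases, kept 49.2% in null oocytes, the highest of the 11 longest, and Rps27a, at 471 bases, was the lowest at 0.671%.

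**Figure D4:**
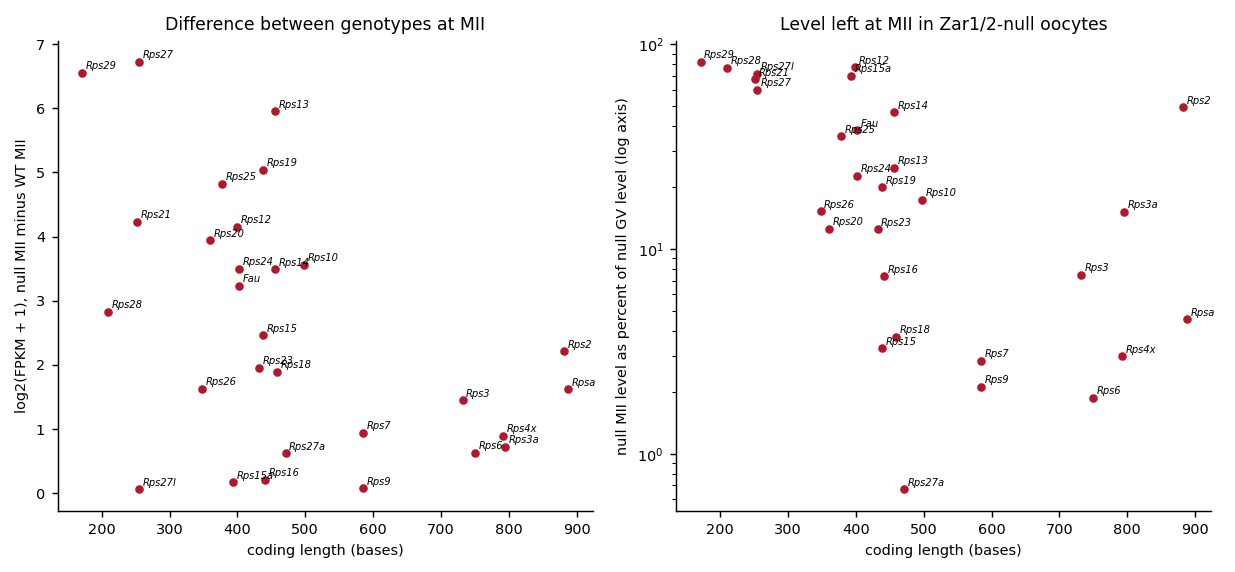
Coding length in bases (x axes) against the null minus WT difference in log2(FPKM + 1) at MII (left) and against the null MII level as a percentage of the null GV level on a log axis (right), with 1 point for each of 29 members. Short members such as Rps29, Rps28 and Rps21 sit at the top of the right panel, and Rps27a, Rps6 and Rps9 at its bottom.

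Before maturation few members differed between the genotypes. In growing oocytes 1 member was higher in null oocytes (10.6% of all genes were) and 2 were lower (24.4% of all genes), and 30 did not pass. The median difference over the members was -0.15 on the log2 scale and over all genes -0.16. Rps23, at the decoding centre, was at 118 and 111 FPKM in WT and 206 and 185 FPKM in null growing oocytes, a difference of 0.77 (SE 0.17, limma adjusted p = 0.00580). Rps28 was at 690 and 609 FPKM in WT and 372 and 379 FPKM in null growing oocytes, a difference of -0.79 (SE 0.21, limma adjusted p = 0.0139). Rps7, which takes part in 18S rRNA maturation, was at 343 and 345 FPKM in WT and 248 and 219 FPKM in null oocytes, a difference of -0.56 (SE 0.15, limma adjusted p = 0.0163). In all 3 both null libraries lay on 1 side of both WT libraries.

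The calls in growing oocytes were not robust for the 2 lower members. Without spike-in scaling the adjusted p was 0.0907 for Rps28 and 0.105 for Rps7, and with median scaling 0.0754 and 0.0909. Rps28 also lost its call without the filter on low values (0.0534) and without the first WT or either null growing library (0.0553 to 0.0973). Rps7 lost its call without either WT library or the second null library (0.0713 to 0.112). Rps23 stayed higher by the test whichever library was left out. Rps27 had lower values in both null growing libraries, with a difference of -1.43 (SE 1.73, limma adjusted p = 0.553), and among the settings run passed only in a fit of the 4 growing libraries (0.0177).

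Another 8 members had positive differences in growing oocytes that did not pass. Among them were Rps6 at 140 and 138 FPKM in WT and 182 and 184 FPKM in null oocytes, Rps20 at 275 and 275 FPKM in WT and 334 and 359 FPKM in null oocytes, and Rps3 at 52.8 and 49.5 FPKM in WT and 60.4 and 58.8 FPKM in null oocytes. Rps15 was at 305 and 312 FPKM in WT and 362 and 336 FPKM in null oocytes, Rps2 at 361 and 358 FPKM in WT and 387 and 374 FPKM in null oocytes, and Rps3a at 209 and 188 FPKM in WT and 223 and 188 FPKM in null oocytes. The libraries of the first 5 of these did not overlap between genotypes, and those of Rps3a did. Rps18, at 398 and 429 FPKM in WT and 415 and 418 FPKM in null oocytes, overlapped as well. In all, both null libraries were above both WT libraries in 6 members (22.4% of all genes) and below in 19 (47.4%). None of the members passed 3-fold in growing oocytes, in either direction, where 0.982% of all genes were higher and 3.54% lower.

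In GV oocytes 0 members were higher in null oocytes and 1 was lower, against 2.83% and 40.6% of all genes. At an unadjusted p under 0.05 there were 3 members. The members' median difference was -0.10 on the log2 scale and that of all genes -0.38. The lower member was Rpsa, at 100 and 94.9 FPKM in WT and 66.7 and 66.3 FPKM in null GV oocytes, which did not overlap, with a difference of -0.55 (SE 0.14, limma adjusted p = 0.0109). Without spike-in scaling the Rpsa difference shrank to -0.10 (limma adjusted p = 0.700), and with median scaling it was 0.04. The call was also lost in a fit of the 4 GV libraries (0.0659) and without the first WT GV library (0.0576).

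The sign of these small differences rested on the scaling. Without spike-in scaling the members' median was 0.36 and 5 members were called higher, and with median scaling 0.50 and 9 members. Of all 11502 genes, 827 and 1056 were called higher in the same settings. Rps6 was at 106 and 97.7 FPKM in WT and 137 and 121 FPKM in null GV oocytes, the single member with both null libraries above both WT libraries (6.79% of all genes), while 10 had both below (63.6%). Rps15 was at 303 and 336 FPKM in WT and 415 and 326 FPKM in null oocytes, and Rps23 at 57.5 and 63.9 FPKM in WT and 77.6 and 63.1 FPKM in null oocytes, and both also had a positive difference in the scaled values. Rps27 differed by -3.47 (SE 1.73, limma adjusted p = 0.125), which rested on the second null library at under 1 FPKM. Without that library the difference was 0.43, and without the first null library it was -7.37 and passed (limma adjusted p = 0.000180). None of the members passed 3-fold in GV oocytes with both libraries of each group, where 0.461% of all genes were higher and 4.20% lower.

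From growing to GV oocytes most members kept their level. In WT oocytes 0 rose (2.77% of all genes) and 2 fell (28.7% of all genes), which were also the 2 with an unadjusted p under 0.05. Rps23 went from 118 and 111 to 57.5 and 63.9 FPKM, a difference of -0.91 (SE 0.17, limma adjusted p = 0.00474), and Rps6 from 140 and 138 to 106 and 97.7 FPKM, a difference of -0.45 (SE 0.15, limma adjusted p = 0.0437). Neither passed without spike-in scaling (limma adjusted p = 0.101 and 0.855), and Rps6 lost its call without any 1 of the 4 WT growing and GV libraries (0.0633 to 0.187) and in several other settings. Members with a positive difference included Rps7, Rps10, Rps15, Rps15a, Rps16, Rps18, Rps20, Rps21, Rps26 and Rps27l, none of which passed. The largest was Rps20, at 275 and 275 FPKM in growing and 339 and 361 FPKM in GV oocytes, which did not overlap.

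In null oocytes 1 member rose from growing to GV (4.76% of all genes) and 5 fell (55.9% of all genes). Rps28 went from 372 and 379 to 715 and 479 FPKM, a difference of 0.64 (SE 0.21, limma adjusted p = 0.0214). Rps23 went from 206 and 185 to 77.6 and 63.1 FPKM, a difference of -1.47 (SE 0.17, limma adjusted p = 5.28e-05), and its GV libraries overlapped with those of WT oocytes. Rpsa went from 95.8 and 101 to 66.7 and 66.3 FPKM (-0.56, SE 0.14, limma adjusted p = 0.00608), and Rps6 from 182 and 184 to 137 and 121 FPKM (-0.50, SE 0.15, limma adjusted p = 0.0138). Rps3 went from 60.4 and 58.8 to 41.1 and 43.0 FPKM (-0.49, SE 0.13, limma adjusted p = 0.00833) and Rps2 from 387 and 374 to 269 and 296 FPKM (-0.43, SE 0.14, limma adjusted p = 0.0233). The GV libraries of each of the 5 were below its growing libraries. Without spike-in scaling 18 members were called higher and 1, Rps23, lower, against 1646 and 2455 of all 11502 genes. In that setting Rps2, Rps3 and Rps6 had the other sign, by 0.12, 0.053 and 0.05 on the log2 scale. The Rps28 call was lost without either null growing library (limma adjusted p = 0.0796 and 0.0691), without the first null GV library (0.198) and without the filter on low values (0.0713). Rps2 lost its call without the same 3 libraries (0.0611 to 0.0986), and Rps6 without the second null growing or GV library (0.0548 and 0.0638). Members with a positive difference included Rps7, Rps10, Rps14, Rps15, Rps15a, Rps16, Rps24, Rps27a, Rps27l, Rps28 and Rps29. The interaction of genotype with this step was not past the threshold for any member (0 higher and 0 lower, against 2.58% and 11.3% of all genes), with 3 members at an unadjusted p under 0.05. That of Rps28 was 0.76 (SE 0.30, limma adjusted p = 0.114), and it passed without the second null GV library (0.0415).

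During maturation of WT oocytes all 33 members fell, as did 93.4% of all genes, and 0 rose (0.104% of all genes), by a median of -5.63 on the log2 scale against -1.28 over all genes. Past the study's 10-fold rule for lost transcripts were 29 members, against 15.7% of all genes. As a percentage of the mean GV level, a median of 1.41 was left, with 13 members under 1, and the median over 4914 genes with a GV mean of at least 10 FPKM was 18.8. Without spike-in scaling the members' median was 4.75. Among the largest falls were those of Rps13, with a difference of -8.20 (SE 0.21, limma adjusted p = 8.92e-11), and Rps27, with -8.03 (SE 1.73, limma adjusted p = 0.000962).

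Rps27l, Rps15a and Rps28 were among the 4 members that did not pass the 10-fold rule. Rps27l went from 849 and 704 to 527 and 424 FPKM, a difference of -0.71 (SE 0.22, limma adjusted p = 0.00871), and was the member that kept the largest portion of its GV level, 61.3%. Rps15a went from 40 and 32.4 to 18.7 and 14.6 FPKM, a difference of -1.08 (SE 0.20, limma adjusted p = 0.000306). MII libraries were below GV libraries in both. The call of Rps27l was lost without the first WT GV library (limma adjusted p = 0.0726) and without the second WT MII library (0.0738). These differences depended on the spike-in. Without it Rps27l and Rps15a were the higher in MII oocytes, with log2 differences of 1.05 and 0.62 (limma adjusted p = 0.000308 and 0.0112), so that both mRNAs gained in their share of the library while falling in scaled level.

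In null oocytes 28 members fell from GV to MII and 0 rose, against 68.7% and 0.209% of all genes. Their median difference was -2.68 on the log2 scale (all genes -0.72), and 12 members passed the 10-fold rule (6.66% of all genes). The median level left was 15.3% of the GV mean, with 7 members at 50% or more, against 36.0% over 4011 genes. Rps27a fell the furthest, from 441 and 340 to 3.22 and 2.02 FPKM, a difference of -6.77 (SE 0.21, limma adjusted p = 1.37e-09), followed by Rps9, from 253 and 220 to 4.49 and 5.57 FPKM (-5.30, SE 0.25, limma adjusted p = 1.17e-08), and Rps6, from 137 and 121 to 2.63 and 2.21 FPKM (-5.25, SE 0.15, limma adjusted p = 8.88e-10). Little of these 3 was left in either genotype, at 0.671%, 2.13% and 1.87% of GV in null and 0.332%, 1.78% and 1.20% in WT oocytes.

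At the other end, Rps29 kept 82.0% of its null GV level, Rps12 77.3%, Rps28 77.1% and Rps27l 71.7%, none of which passed the test. Rps15a kept 70.1%, Rps21 67.6% and Rps2 49.2%, and these were the smallest falls that passed, with differences of -0.48 (SE 0.20, limma adjusted p = 0.0487), -0.57 (SE 0.23, limma adjusted p = 0.0483) and -1.02 (SE 0.14, limma adjusted p = 6.49e-05). The calls of Rps15a and Rps21 were lost without the first null GV library (limma adjusted p = 0.264 and 0.244), without the second null MII library (0.223 and 0.295) and, more narrowly, without most other libraries. Without spike-in scaling the same 3 lay above their GV level, by 0.55, 0.49 and 0.033 on the log2 scale, and Rps29 was at 169% and Rps12 at 161% of it. Rps27, at 2.17 (SE 1.73, limma adjusted p = 0.282), was the single member with a positive difference in the scaled values, and that sign came from the second null GV library, since without it the difference was -1.74 (limma adjusted p = 0.0425), and without the first it was 6.07 (3.13e-05).

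**Figure D5:**
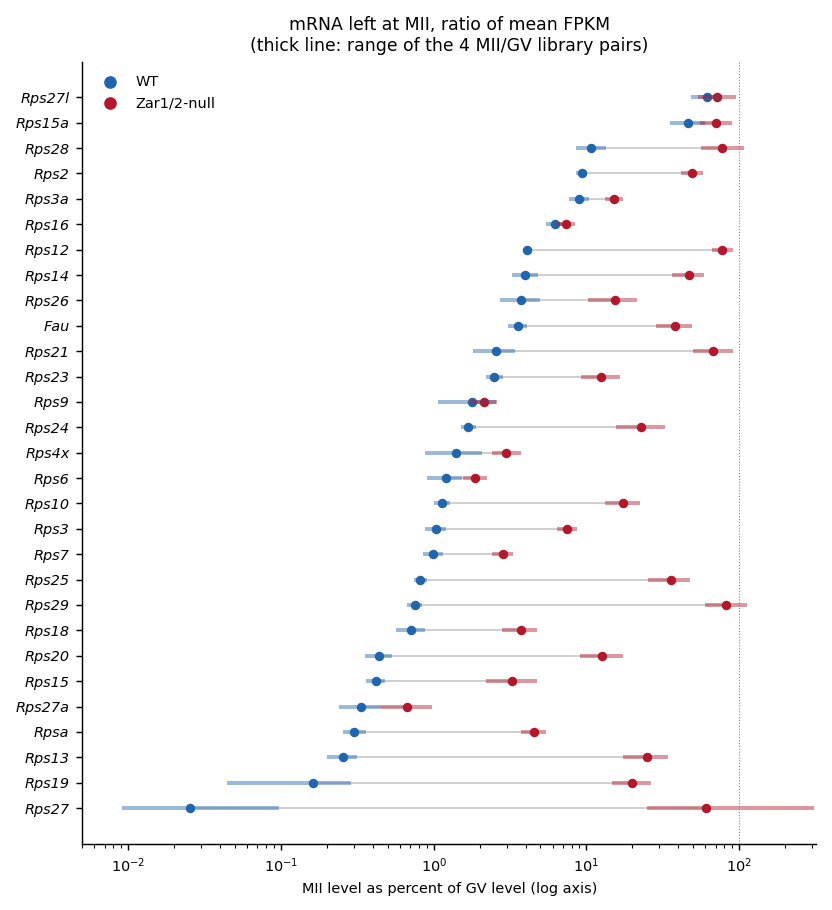
Level in MII oocytes as a percentage of the mean GV level on a log axis (x axis) for 29 of the 33 members (y axis, ordered by the WT value), in WT (blue) and Zar1/2-null (red) oocytes, with thick lines for the range of the 4 pairs of MII and GV libraries (that of Rps27 in null oocytes runs past the axis). WT values run from 0.0253 for Rps27 to 61.3 for Rps27l, and null values from 0.671 for Rps27a to 82.0 for Rps29.

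The difference of the maturation step between genotypes was tested as an interaction. It was higher in null oocytes for 27 members and lower for 0, against 33.9% and 0.643% of all genes, with a median of 2.26 on the log2 scale and 0.48 over all genes. The largest were those of Rps27 (10.19, SE 2.45, limma adjusted p = 0.00886), Rps29 (6.65, SE 0.27, limma adjusted p = 3.06e-08) and Rps13 (6.17, SE 0.30, limma adjusted p = 1.04e-07). Among the smallest that passed were those of Rps4x (1.06, SE 0.34, limma adjusted p = 0.0344) and Rps3a (0.73, SE 0.22, limma adjusted p = 0.0268), neither of which passed without spike-in scaling (limma adjusted p = 0.384 and 0.870). The Rps4x interaction was lost without any 1 of 7 libraries (0.0503 to 0.126), and that of Rps3a without any 1 of 5 (0.0516 to 0.0859). Rps27a, Rps15a, Rps9, Rps6, Rps16 and Rps27l did not pass. Rps6, Rps9 and Rps27a had dropped to a few FPKM or less in both genotypes, whereas Rps15a and Rps27l had kept much of their level in both.

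Proteins that work beside the 40S members were followed from lists of related genes. Of 48 tested cytoplasmic large-subunit genes, 44 were higher and 1 was lower in null MII oocytes, against 21.5% and 10.3% of all genes. Their median difference was 2.33 on the log2 scale. Rpl39 was at 3.68 and 3.74 FPKM in WT and 1238 and 955 FPKM in null MII oocytes, and Rpl38 at 8.20 and 3.46 FPKM in WT and 522 and 450 FPKM in null MII oocytes. The lower gene was Rpl4, at 25.4 and 33.9 FPKM in WT and 17.6 and 14.3 FPKM in null MII oocytes (-0.85, SE 0.18, limma adjusted p = 0.00403), and Rpl37, at 75.9 and 69.7 FPKM in WT and 72.0 and 49.9 FPKM in null MII oocytes, did not pass. Both subunits thus held mostly higher genes and a few that were not.

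The 29 mitochondrial small-subunit genes had 17 higher and 0 lower, against 21.5% and 10.3% of all genes, with a median of 0.92. Mrps24, at 0.218 and 0.496 FPKM in WT and 45.2 and 39.3 FPKM in null MII oocytes, and Mrps12, at 0.502 and 1.01 FPKM in WT and 13.5 and 10.6 FPKM in null MII oocytes, differed the most. Mrps35 and Mrps5 had the lowest differences, -0.41 and -0.13, which did not pass.

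Genes that build or regulate the 40S subunit are given here by their counts, whose difference from those of the members was not tested. Of 38 assembly factors 9 were higher and 7 lower in null MII oocytes, where 21.5% and 10.3% of all genes were called, with a median of -0.11 on the log2 scale. Imp3, a component of the U3 snoRNP, was at 6.33 and 5.98 FPKM in WT and 45.6 and 41.6 FPKM in null MII oocytes (2.64, SE 0.15, limma adjusted p = 1.46e-07), and its partner Imp4 was also higher (0.93, adjusted p = 0.00404). Krr1 was at 1.87 and 3.21 FPKM in WT and 0.590 and 0.45 FPKM in null MII oocytes (-1.20, adjusted p = 0.000935), and Riok2, a kinase of late 40S assembly, differed by -0.96 (0.00105). Both directions were thus present in this list at MII. In GV oocytes 0 of the 38 were higher and 19 lower in null oocytes, against 2.83% and 40.6% of all genes. Krr1 was there at 29.1 and 22.9 FPKM in WT and 7.40 and 6.25 FPKM in null oocytes. Riok2 was at 20.1 and 14.1 FPKM in WT and 4.65 and 5.56 FPKM in null GV oocytes. By the interaction at maturation 10 were higher and 0 lower, against 33.9% and 0.643% of all genes.

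Of 13 S6 kinases and regulators of ribosomal protein mRNA translation, 0 were higher and 2 lower in null MII oocytes, with a median of -0.012. The shares over all genes were 21.5% higher and 10.3% lower. Larp4, a poly(A)-binding La-related protein, was at 13.0 and 13.6 FPKM in WT and 4.82 and 5.42 FPKM in null MII oocytes (-1.23, SE 0.18, limma adjusted p = 0.000314). Rps6kb1, an S6 kinase, was at 2.41 and 2.38 FPKM in WT and 1.37 and 1.47 FPKM in null MII oocytes (-0.49, SE 0.13, limma adjusted p = 0.0141). Rps6kb2 and Tsc2 had the highest differences, 0.45 and 0.32, and did not pass. Already at GV, 9 of the 13 were lower and 0 higher in null oocytes (40.6% and 2.83% of all genes). Larp4 was then at 26.9 and 21.2 FPKM in WT and 12.3 and 9.29 FPKM in null oocytes. Rps6kb1 was at 7.08 and 5.69 FPKM in WT and 2.74 and 2.81 FPKM in null GV oocytes. By the interaction at maturation 3 were higher and 0 lower, against 33.9% and 0.643% of all genes. Gnb2l1, which encodes the scaffold RACK1 on the 40S head, was at 31.2 and 28.6 FPKM in WT and 56.3 and 51.2 FPKM in null MII oocytes, with no overlap (0.82, SE 0.14, limma adjusted p = 0.000976), a smaller difference than the median of the members.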

How the data were processed

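RNA-seq libraries of WT and Zar1/2-null mouse oocytes (2 per group, 6 groups) were analysed from 1 deposited table. The authors trimmed reads to 50 bases, mapped them to mm9 with TopHat2 2.1.1, kept uniquely mapped reads and estimated FPKM with Cufflinks 2.2.1. They multiplied each library by a factor from its ERCC reads. The deposited FPKM values hold no counts, so no count test was run. Recovered factors placed the libraries of each replicate number on the scale of the same-numbered WT growing library.

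Genes with at least 1 FPKM in 1 library (11502) were fitted with limma 3.58.1 (R 4.3.3, eBayes with trend) on log2(FPKM + 1), 1 term per group over 12 libraries, 6 residual degrees of freedom, Benjamini-Hochberg adjustment, threshold 0.05. Fold changes are on the log2(FPKM + 1) scale, which understates changes of low genes. An exact permutation test of 2 against 2 libraries cannot go below 0.333. On data simulated for the MII comparison, limma recovered 99% of 200 genes changed 6-fold among 11502, with 8 false calls. The changed genes were set to at least 10 FPKM in WT MII oocytes, so the recovery at lower levels was not tested. In the real WT MII libraries the median tested gene was at 0.973 and 1.12 FPKM. Group ratios used means of at least 1 FPKM.

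Named in full were the 3 largest and 3 smallest changes past the threshold in each contrast, members whose sign went against the median, the highest and lowest by level, and chosen genes. A few members enter every count, sum and test but are not reported by name here. Members, lists and this rule were chosen with earlier results of these data known. Motifs and positions came from an mm9 annotation and RefSeq starts (GRCm38.p6).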

Additional observations from a re-analysis of the deposited data

Results flagged for a closer look

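The effect of genotype differed between MII and GV oocytes by the interaction test in limma for 27 of the 33 members, which put these results here. Each had a difference between null and WT oocytes that was higher at MII than at GV. For the members named in the report, the interaction on the log2(FPKM + 1) scale was 10.19 for Rps27, 6.65 for Rps29, 6.17 for Rps13, 1.06 for Rps4x and 0.73 for Rps3a. The value of Rps27 rests on GV libraries that differ widely within each genotype, and it did not pass without the filter on low values (adjusted p = 0.0852). Groups of 2 libraries are too small for a search for single deviating libraries.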

How the results depend on the processing

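The count of members higher in null MII oocytes (29) and of those past 3-fold there (22) stayed within 1.5 times under every alternative run: 25 to 29 and 19 to 22 when a library was left out. The spike-in scaling mattered most. It shifts the median of all genes in the WT step from GV to MII from -1.28 to -0.43 without it and to 0.16 under median scaling. Groups of 2, 10 oocytes a library and values without counts limit the precision, most at the low levels of MII oocytes, where the pseudocount holds back the differences.

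Without spike-in scaling 5 members were called higher and 0 lower in null growing oocytes, 5 higher and 0 lower at GV, 1 higher and 0 lower from WT growing to GV, 18 and 1 for that step in null oocytes, 2 higher from WT GV to MII and 5 higher in null oocytes. Of all 11502 genes, in that order, 1711 were higher and 1412 lower, then 827 and 1554, 421 and 372, and 1646 and 2455. From GV to MII 2267 were higher in WT and 2248 in null oocytes. Under median scaling the same counts of members were 2 and 0, 9 and 0, 0 lower, 25 and 1, 2, and 8 higher with 18 lower, the interaction at maturation had 1 lower, and the 10-fold rule was passed by 17 members in WT and 5 in null oocytes. Of all genes under median scaling, 1175 were higher and 1496 lower in null growing oocytes, and 1056 and 1056 at GV. From growing to GV 254 were lower in WT, and 2242 higher and 1615 lower in null oocytes. From GV to MII 4788 were higher in WT, and 4411 higher and 3164 lower in null oocytes, and the interaction at maturation had 1701 lower. Averaged spike-in factors gave 2 lower at GV. Without the filter on low values 1 was lower in growing oocytes, 1 lower from WT growing to GV and 0 higher for that step in null oocytes. A pseudocount of 0.1 FPKM or a minimum mean of 5 FPKM each left 1 lower for the WT step. A fit of the 4 libraries of a stage gave 2 higher and 4 lower in growing and 0 lower in GV oocytes.

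The replicate numbers did not pair the libraries (correlations of deviations from -0.117 to 0.163). With a replicate block 3 members were lower at GV and 1 was higher in the interaction over growth (Rps28, adjusted p = 0.0347). With crossed numbers at GV, chosen after seeing the data, 2 were lower. Leaving out 1 library gave 0 to 3 members lower in growing oocytes, 0 to 2 lower at GV, 1 to 2 lower from WT growing to GV, 0 to 1 higher and 3 to 5 lower for that step in null oocytes, 0 to 1 higher and 26 to 31 lower from null GV to MII, and 0 to 1 in either direction of the interaction over growth. By the 3-fold rule it gave 0 to 1 lower in growing and in GV oocytes.

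Signs that turned, in log2 units: without spike-in scaling, from GV to MII Rps15a (0.62) and Rps27l (1.05) in WT and Rps2 (0.033), Rps21 (0.49) and Rps15a (0.55) in null oocytes, from null growing to GV Rps2 (0.12), Rps3 (0.053) and Rps6 (0.05), and between genotypes at MII Rps15a (-0.061), Rps16 (-0.02), Rps27l (-0.18) and Rps9 (-0.13). Under median scaling they were Rps15a (1.56) and Rps27l (1.99) from WT GV to MII, Rps2 (0.71), Rps21 (1.17) and Rps15a (1.22) for null oocytes, Rps2 (0.33), Rps3 (0.26), Rps6 (0.26) and Rpsa (0.19) from null growing to GV, Rpsa between genotypes at GV (0.04), Rps3a in the interaction (-0.20), and Rps15a (-0.19), Rps16 (-0.15), Rps27l (-0.31) and Rps9 (-0.25) between genotypes at MII. Over the fits that left out 1 library, the genotype difference at MII ran from -0.0028 to 0.34 for Rps15a, -0.16 to 0.28 for Rps27l and -0.39 to 0.55 for Rps9, and Rps27 ran from -7.37 to 0.43 at GV and from -1.74 to 6.07 from null GV to MII, both set by the null GV libraries. The cause of these changes was not tested.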
